A study of Mus musculus with 14 samples.

Results

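Transcript levels were read for 9 mouse genes that make, bind or break down hyaluronan, out of 48795 genes in the count table. The genes were taken by name: the synthases Has1, Has2 and Has3, the matrix binders Hapln1, Vcan and Tnfaip6, the receptor Cd44, and the hyaluronidases Hyal1 and Hyal2. All 9 were found in the table, and 8 of them passed the filter on low counts and were tested, Hapln1 being the exception.

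Hyaluronan is a long unbranched sugar polymer that is made at the plasma membrane by the Has enzymes and pushed out into the matrix as it grows. Outside the cell it is organised by versican, link protein and TSG-6 and gripped by the receptor CD44, and it is then cut by hyaluronidases and finished off in lysosomes. Fibroblasts are a main source of hyaluronan in skin and lung, and Has2 is usually their leading synthase.

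RNA came from cells that had grown out of explanted pieces of dorsal skin or lung of male mice aged 8 to 10 weeks and were harvested on day 14, without stimulation. The titles give 4 groups: KO-mDF (skin, Rel -/-, 3 libraries, numbered 18, 19 and 20), WT-mDF (skin, wild type, 2 libraries, 11 and 22), KO-mLF (lung, Rel -/-, 4 libraries, 7 to 10) and WT-mLF (lung, wild type, 5 libraries, 1, 23, 3, 4 and 5). The strain label of the wild-type animals is C57BL/6J. Rel encodes c-Rel, a subunit of the NF-kappaB transcription factor, and the design asks how its loss changes expression in each tissue. The treatment label of KO-mLF 10 names skin, whereas its title and source name lung, and it was kept with lung. Whether a group's libraries stem from different animals is not stated, so each p-value reflects only the spread among these libraries. The cultures were explant outgrowths, not sorted cells.

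Library totals ran from 12780350 to 30987933 counts, except WT-mDF 22 with 2663437. Of the genes that averaged at least 5 CPM (counts scaled to a common library size) over a tissue's remaining libraries, those with 0 counts in a library, here called gaps, made up 3.37% to 11.5% in KO-mLF 7, WT-mDF 11, WT-mLF 4 and KO-mDF 18, and at most 0.728% elsewhere. Xist, which is transcribed from inactive X chromosomes, was read at 77.5 CPM in WT-mLF 1 and 623 CPM in WT-mDF 22, against at most 0.611 CPM in the other libraries, although the animals are labelled male. Rel was read at 0.0334, 9.08 and 8.72 CPM in KO-mDF 18, 19 and 20, against 11.3 and 9.27 CPM in WT-mDF. In lung it was 0.0607, 4.34, 1.44 and 4.02 CPM in KO-mLF, against 7.54, 16.8, 13.8, 1.05 and 13.3 CPM in WT-mLF. Rel in KO-mDF 19 and 20 was therefore near the WT-mDF level, though below both WT-mDF libraries. The low Rel of KO-mDF 18 and KO-mLF 7 came from 1 count each, in libraries with many gaps. Whether these low values are gaps was not tested. In lung WT-mLF 4, a library with many gaps, lay below KO-mLF 8, 9 and 10, so that Rel did not separate the lung groups. The labels do not say which part of the gene was removed, and every direction drawn below concerns libraries labelled Rel -/- or wild type. All 8 fibroblast markers were read in each group, with a summed level of 9076 to 23617 CPM in KO-mDF, 18711 to 29744 CPM in WT-mDF, 19076 to 68182 CPM in KO-mLF and 27485 to 155308 CPM in WT-mLF. The summed level of 11 keratinocyte markers was 984 to 2584 CPM in KO-mDF and 16.3 to 45.1 CPM in WT-mDF, with at most 35.1 CPM in any lung library. The summed level of 10 macrophage and leukocyte markers was 29.1 to 160 CPM over the skin libraries and 5316 to 24847 CPM over the lung libraries.

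Per kilobase of merged exons, Cd44 was the highest of the 9 genes, with a level of 71.4 ± 49.3 CPM per kilobase over the 14 libraries (SD). Vcan followed with 12.6 ± 11.1, then Hyal2 with 10.3 ± 5.44 and Has2 with 6.28 ± 3.36 CPM per kilobase. Tnfaip6 (2.75 ± 3.08), Hyal1 (2.57 ± 2.21) and Has1 (1.14 ± 1.62) were lower on the same scale. Has3 (0.0805 ± 0.144) and Hapln1 (0.00962 ± 0.0175) were the lowest. For Tnfaip6, Has1, Has3 and Hapln1 the SD over the libraries was larger than the mean.

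**Figure D1:**
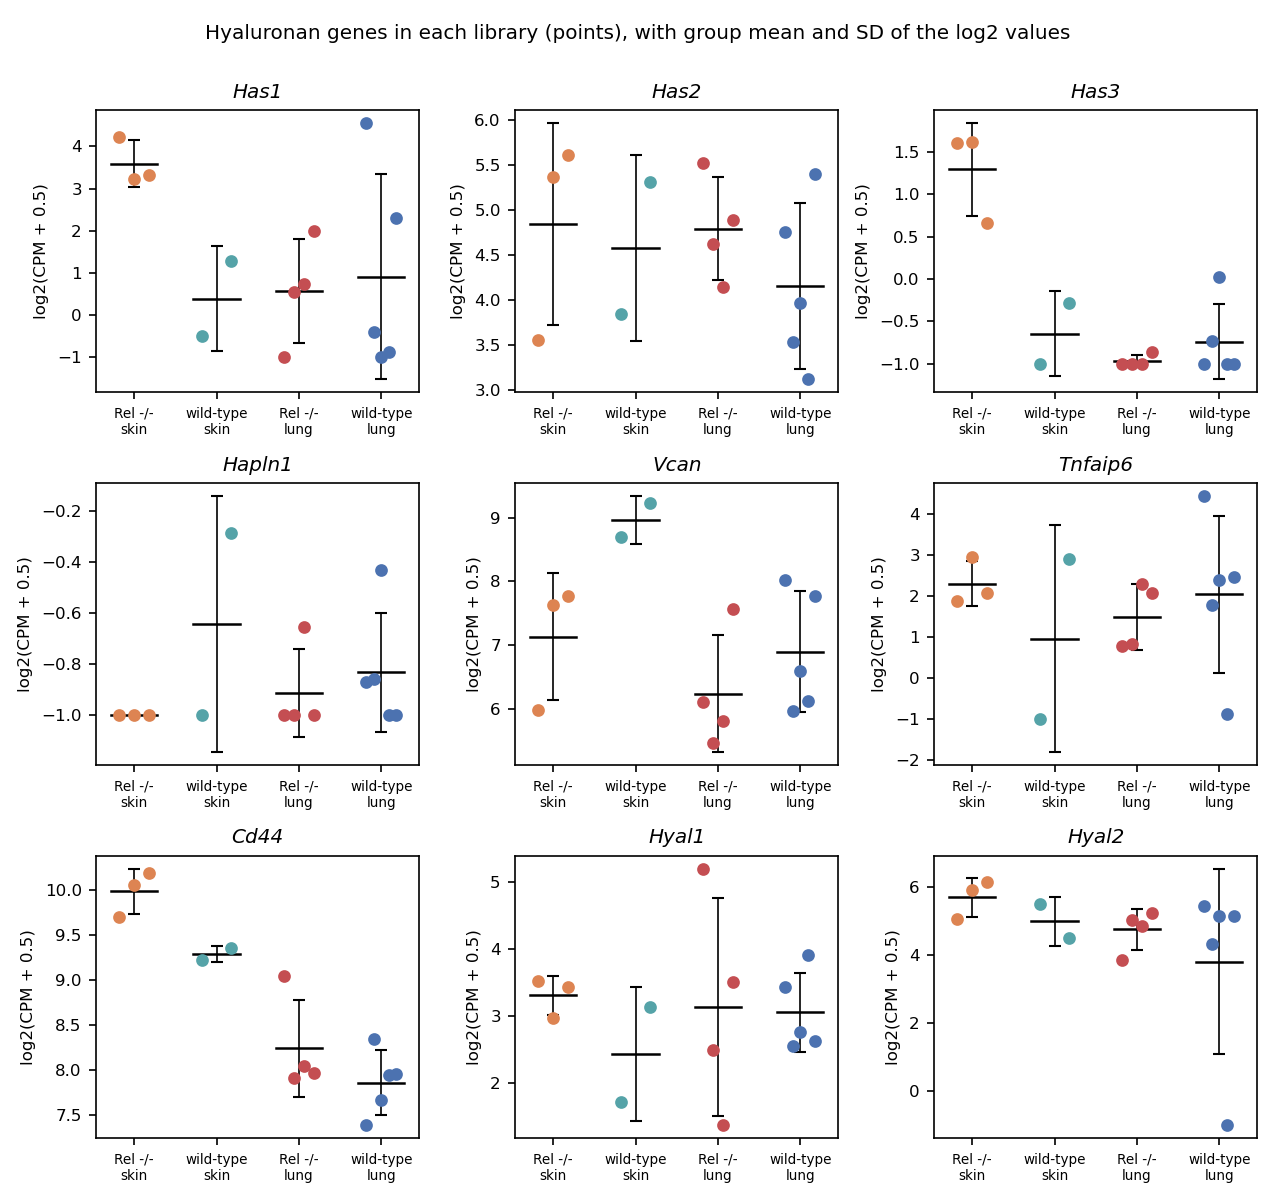
Level of each of the 9 genes in each of the 14 libraries, as log2(CPM + 0.5) on the y axis, with groups on the x axis. Points are libraries, horizontal lines are group means and bars are the SD of the log2 values. Cd44 lay higher in every skin library than in every lung library, and Has3 lay highest in the 3 KO-mDF libraries.

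Cd44 was the 1 gene of the 8 that passed the test, and it was higher in skin than in lung in both genotypes. Genotype gave no call. In edgeR's quasi-likelihood test with Benjamini-Hochberg adjustment, 0 of 8 genes passed for KO-mLF against WT-mLF, where 0% of all 16408 genes tested did. The same held for KO-mDF against WT-mDF, again with 0% of all genes. For the difference between these genotype effects, skin minus lung, 0 of 8 and 0% of all genes passed too. At an unadjusted p under 0.05 the counts were 0 of 8 in lung (6.31% of all genes), 1 of 8 in skin, which was Vcan (6.24%), and 0 of 8 for the difference (4.67%). DESeq2 and limma-voom also called 0 of the 8 in these 3 comparisons. Of all 16408 genes, DESeq2 called 51 in lung, 145 in skin and 99 for the difference, and limma-voom 6, 300 and 174. For skin over lung, 1 of 8 passed in KO-mDF against KO-mLF (5.05% of all genes, 1.82% in the higher direction) and 1 of 8 in WT-mDF against WT-mLF (2.97%, 0.902% in the higher direction). The skin and lung comparisons share libraries with the genotype comparisons. In bulk RNA, fewer cells of a type and less RNA per cell cannot be told apart.

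Counted by separation of the libraries, 0 of 8 genes had groups that did not overlap in KO-mLF against WT-mLF, beside 2.24% of all genes tested. In KO-mDF against WT-mDF, 3 genes (Has1, Has3 and Cd44) were higher in every KO-mDF library, beside 14.8% of all genes, and Vcan was lower, beside 10.3%. In KO-mDF against KO-mLF the same count of 3 genes (Has1, Has3 and Cd44) was higher without overlap, beside 11.6% of all genes. Has3 passed the low-count filter only through its counts in KO-mDF, as given below. In WT-mDF against WT-mLF, Vcan and Cd44 were higher without overlap, beside 7.11%. In exact permutation tests, 0 of 8 genes had p under 0.05 in lung by genotype (6.64% of all genes), 0 of 8 in skin, where 10 splits cannot go below 0.1 (0%), 1 of 8, Has3, in KO-mDF against KO-mLF (12.5%) and 2 of 8, Vcan and Cd44, in WT-mDF against WT-mLF (13.8%). The median log2 fold change of the 8 genes was -0.29 for KO-mLF over WT-mLF, where that of all genes tested was -0.08. It was 0.70 for KO-mDF over WT-mDF (0.01 for all genes), 0.89 for KO-mDF over KO-mLF (-0.01) and 0.19 for WT-mDF over WT-mLF (-0.13).

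**Figure D2:**
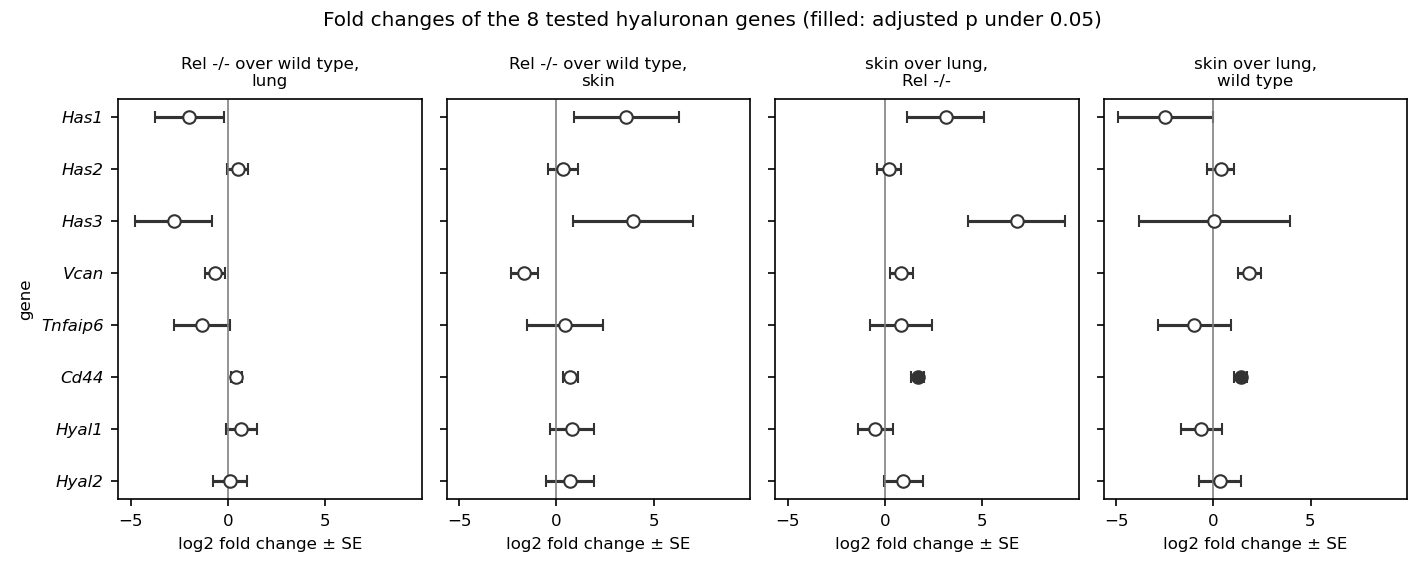
Log2 fold change of the 8 tested genes in 4 comparisons, on the x axis, with genes down the y axis. Circles are edgeR estimates, bars are the SE of the fit, and filled circles mark an adjusted p under 0.05. Only Cd44 in the 2 skin over lung panels is filled, at 1.68 for Rel -/- and 1.40 for wild type.

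Has2 (ENSMUSG00000022367, GRCm38 chromosome 15, 56665627-56694539, minus strand) was the leading synthase gene in most libraries and did not pass in any comparison. Its level was 11.3, 40.7 and 48.6 CPM in KO-mDF 18, 19 and 20, against 13.9 and 39.3 CPM in WT-mDF 11 and 22. In KO-mLF 7, 8, 9 and 10 it was 45.5, 24.1, 17.2 and 29.2 CPM, against 26.5, 11.1, 15.2, 8.20 and 41.7 CPM in WT-mLF 1, 23, 3, 4 and 5. High and low libraries stood in every group, and all groups overlapped. The log2 fold change was 0.34 ± 0.77 (SE) for KO-mDF over WT-mDF and 0.50 ± 0.55 for KO-mLF over WT-mLF. It was 0.21 ± 0.63 for KO-mDF over KO-mLF and 0.37 ± 0.69 for WT-mDF over WT-mLF, with edgeR adjusted p of 0.918 or higher in all 4. Has2os, an antisense transcript that overlaps Has2, was read at 1.90 CPM or less. As no source used here gives the strand setting of the counting, reads of overlapping genes on opposite strands are uncertain.

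Has1 (ENSMUSG00000003665, chromosome 17, 17843323-17855205, minus strand) encodes the synthase regarded as the least active of the family. It had 18.2, 8.83 and 9.51 CPM in KO-mDF 18, 19 and 20, against 0.212 and 1.92 CPM in WT-mDF 11 and 22. The skin groups did not overlap, and the WT-mDF values came from 5 and 6 counts. In lung it had 0, 0.958, 1.17 and 3.46 CPM in KO-mLF 7 to 10, against 23.1, 0.258, 0, 0.0420 and 4.44 CPM in WT-mLF 1, 23, 3, 4 and 5. The 0 counts in KO-mLF 7 allow up to 0.182 CPM, and those in WT-mLF 3 up to 0.103 CPM. WT-mLF 1, which also read Xist, held the highest value of all 14 libraries. The log2 fold change was 3.60 ± 2.71 for KO-mDF over WT-mDF (edgeR adjusted p = 0.851) and 3.12 ± 1.96 for KO-mDF over KO-mLF (adjusted p = 0.438). Without WT-mLF 1, the KO-mLF over WT-mLF estimate was 0.25, against -1.99 ± 1.76 with it, and neither passed.

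Has3 (ENSMUSG00000031910, chromosome 8, 106870242-106884566, plus strand) was almost confined to KO-mDF, at low counts. It had 76, 42 and 15 counts in KO-mDF 18, 19 and 20, or 2.54, 2.58 and 1.08 CPM, against 0 and 1 count in WT-mDF 11 and 22. KO-mLF held 1 count over its 4 libraries, in KO-mLF 10, and WT-mLF held 17, of which 15 were in WT-mLF 3. Every KO-mDF library lay above every other library. The ratio of pooled counts was 177 for KO-mDF over KO-mLF (exact 95% counting interval 31.3 to 7060) and 59.2 for KO-mDF over WT-mDF (10.4 to 2354). These intervals cover counting error only, and the 0 counts in WT-mDF 11 stand in a library with many gaps. The 1 count in WT-mDF 22 has an upper 95% counting limit of 1.78 CPM, above the 1.08 CPM of KO-mDF 20. The fitted log2 fold change for KO-mDF over KO-mLF was 6.78 ± 2.48, with an edgeR adjusted p of 0.141, and that for KO-mDF over WT-mDF 3.93 ± 3.10, with 0.858. Among 24 alternative settings, limma-voom alone called Has3 in KO-mDF over KO-mLF (5.77, adjusted p = 0.00191), and the adjusted p ran from 0.00191 to 0.302 over those that gave one. The exact two-sided permutation test on log2(CPM + 0.5) gave p = 0.0286 for KO-mDF against KO-mLF, the smallest that 35 splits allow. Adjusted over all genes that p was 0.229. Outside KO-mDF, WT-mLF 3 alone held 10 or more counts of Has3, too few libraries for the low-count filter. Has3 was thus tested only through KO-mDF, the group where it was high. Its tests and its separation in KO-mDF are therefore not independent of that filter. The Has3 locus overlaps Chtf8, on the opposite strand, which was read at 56.8 to 141 CPM in the 14 libraries.

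Of the 9 genes, 5 (Has1, Has2, Has3, Cd44 and Hyal2) had their highest group mean in KO-mDF. The share of all genes that did so was not computed, and Has1, Has2 and Hyal2 overlapped the next group. The summed keratinocyte markers were also highest in KO-mDF, with 2584, 984 and 1621 CPM in KO-mDF 18, 19 and 20. Within this group KO-mDF 18 had the lowest Has2, Cd44 and Hyal2 and the highest Has1, with Has3 between KO-mDF 19 and 20. Of 10 keratinocyte markers tested, 7 passed as higher in KO-mDF than in KO-mLF, and 4 in WT-mDF than in WT-mLF. Between KO-mDF and WT-mDF 0 passed, and 9 of the 10 estimates were positive. Krt5, Krt15, Krt1 and Dsg3 had 0 counts in every lung library, and Krt1 had 0 counts in all skin libraries as well. Krt14, a keratin of basal keratinocytes, was read at 1263, 352 and 509 CPM in KO-mDF 18, 19 and 20, against 28.8 and 1.92 CPM in WT-mDF 11 and 22. The summed level of 9 lung epithelium markers was 373 to 632 CPM in KO-mDF and 4.79 to 28.6 CPM in WT-mDF, with at most 178 CPM in any lung library, while Sftpc, Sftpb, Sftpa1 and Nkx2-1 had 0 counts in every KO-mDF library. The median summed level of 5 skeletal muscle markers was 579 CPM in KO-mDF, 296 CPM in WT-mDF, 77.3 CPM in KO-mLF and 41.1 CPM in WT-mLF. The part of these cells in the levels of the 5 genes was not tested.

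**Figure D3:**
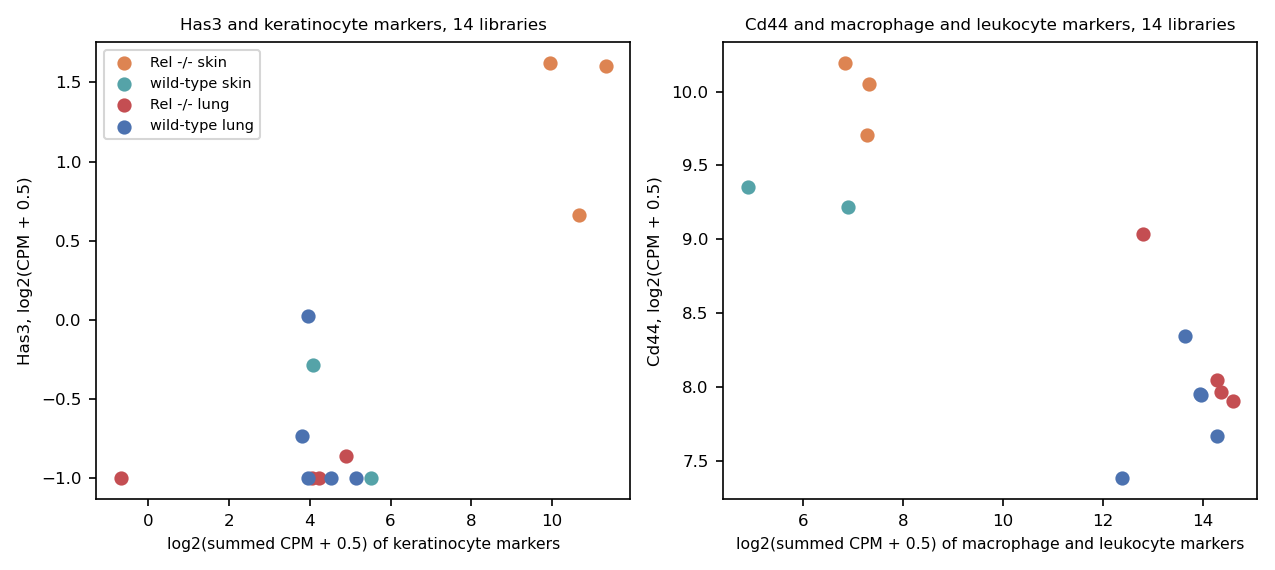
Level of Has3 against the summed level of 11 keratinocyte markers (left) and of Cd44 against that of 10 macrophage and leukocyte markers (right), all as log2(CPM + 0.5), 1 point per library. The 3 KO-mDF libraries stand apart at the top right of the left panel, and the 5 skin libraries at the top left of the right panel.

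Scaled by exon length, Has2 made up 67.1 ± 25.7% of the summed synthase level in KO-mDF (SD, n = 3), 96.9 ± 2.45% in WT-mDF (n = 2), 95.1 ± 4.25% in KO-mLF (n = 4) and 88.1 ± 18.8% in WT-mLF (n = 5). Has2 was the larger share in 13 of 14 libraries; KO-mDF 18 was the exception, with Has1 at 56.9% and Has2 at 37.5%. Has1 also reached 44.9% in WT-mLF 1, and it made up at most 16.3% elsewhere. The share of Has3 was 1.23% to 5.61% in KO-mDF and at most 2.21% in any other library. No test was made on the shares.

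**Figure D4:**
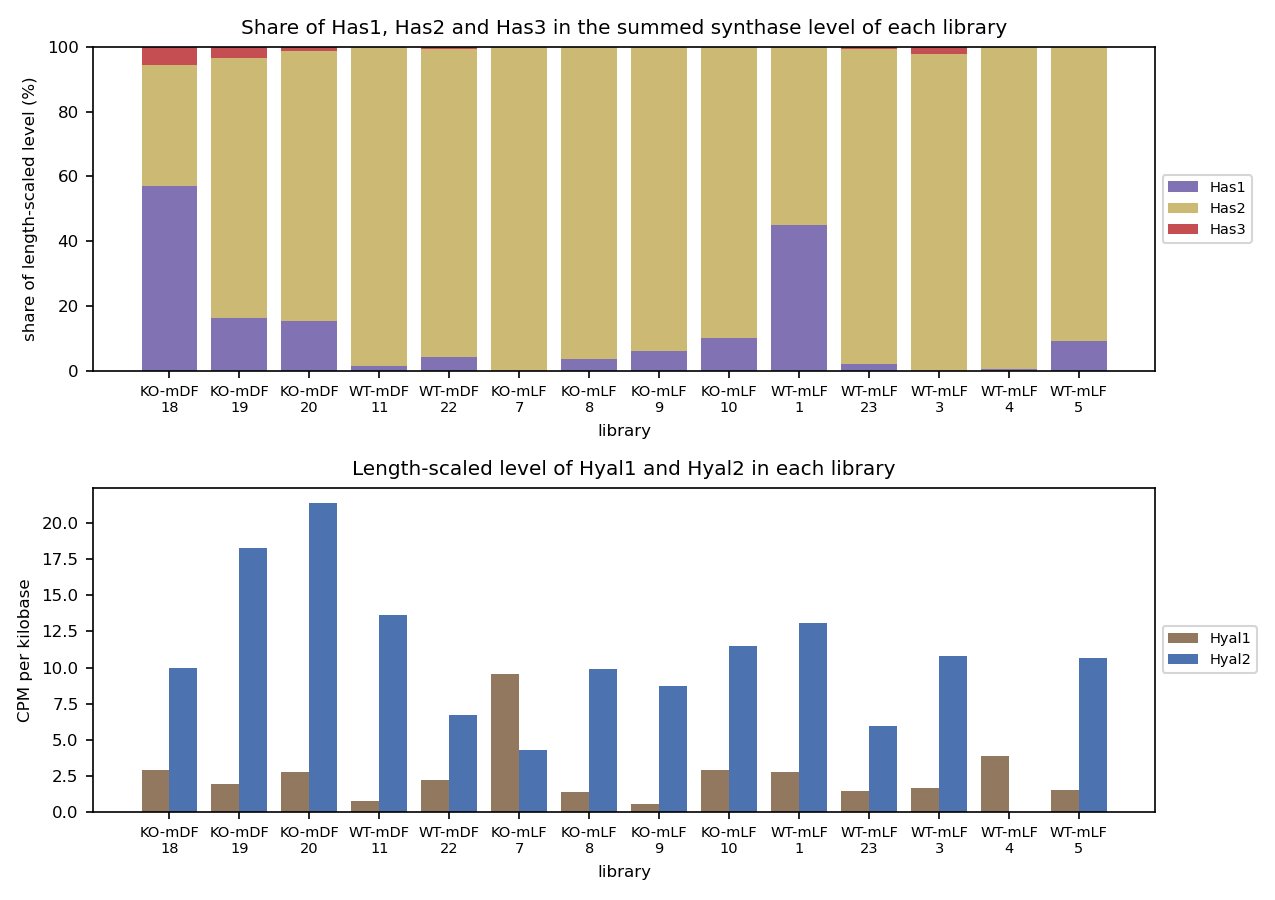
Top, share of Has1, Has2 and Has3 (%) in the summed length-scaled synthase level of each library. Bottom, level of Hyal1 and Hyal2 in CPM per kilobase of merged exons in each library. Has2 fills most bars except in KO-mDF 18 and WT-mLF 1, and Hyal1 exceeds Hyal2 in KO-mLF 7 and WT-mLF 4 alone.

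Vcan (ENSMUSG00000021614, chromosome 13, 89655312-89742509, minus strand) encodes versican, a large chondroitin sulfate proteoglycan that binds hyaluronan at its amino end. It had 62.8, 198 and 219 CPM in KO-mDF 18, 19 and 20, against 414 and 601 CPM in WT-mDF 11 and 22. Both WT-mDF libraries lay above all 12 others, and KO-mDF 18 was near the lowest lung libraries. In lung, Vcan had 68.3, 43.8, 55.9 and 189 CPM in KO-mLF 7 to 10, against 259, 61.9, 96.6, 69.7 and 218 CPM in WT-mLF 1, 23, 3, 4 and 5, and these groups overlapped. The log2 fold change was -1.67 ± 0.69 for KO-mDF over WT-mDF, with an edgeR adjusted p of 0.768, and 1.85 ± 0.61 for WT-mDF over WT-mLF, with 0.140. In the other comparisons it was -0.66 ± 0.52 for KO-mLF over WT-mLF (adjusted p = 0.947) and 0.84 ± 0.58 for KO-mDF over KO-mLF (0.502). WT-mDF over WT-mLF passed without the low-count filter (1.85, adjusted p = 0.0271) and in DESeq2 (1.92, 0.0484), with adjusted p of 0.0271 to 0.310 over 24 alternatives. The exact permutation test gave p = 0.0476 for WT-mDF against WT-mLF, the smallest of 21 splits, and p = 0.1 for KO-mDF against WT-mDF, the smallest of 10. Adjusted over all genes, the p of the tissue comparison was 0.346.

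Promoters were read from RefSeq, as 250 bases before and 50 after the gene start on GRCm38.p6, and 7 of the 9 genes had an entry. They were searched on both strands for the NF-kappaB consensus, because Rel is an NF-kappaB subunit, and for the GC box GGGCGG, the CCAAT box, the TATAAA box and the AP-1 site TGANTCA. Positions are counted from the RefSeq gene start, with negative numbers before it. Of the 7 promoters 0 held TATAAA, beside 13.6% of 32851 RefSeq promoters of the same length. A match is a description of the letters and was not tested as a binding site. The promoter of Vcan, the gene that was lower without overlap in KO-mDF than in WT-mDF, held GGGCGG, written in capitals, at -219 and, on the other strand, at -10, and no NF-kappaB consensus. GGGCGG was found in 35.7% of RefSeq promoters. The sequence lies at chr13:89742463-89742762 on the minus strand.
Vcan promoter: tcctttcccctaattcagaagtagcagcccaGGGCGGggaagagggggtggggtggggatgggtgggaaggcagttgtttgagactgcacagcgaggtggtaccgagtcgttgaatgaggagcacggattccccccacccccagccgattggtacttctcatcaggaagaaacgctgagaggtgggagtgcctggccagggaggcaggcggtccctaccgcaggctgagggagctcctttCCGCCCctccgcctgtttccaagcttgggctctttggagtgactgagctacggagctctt

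Hapln1 (ENSMUSG00000021613, chromosome 13, 89539796-89611652, plus strand) lies next to Vcan and encodes link protein 1, which clamps lecticans to hyaluronan. It was hardly read in these cultures. KO-mDF had 0 counts in its 3 libraries and WT-mDF 1 count, in library 22. KO-mLF had 3 counts, all in library 9, and WT-mLF had 9, of which 7 were in library 3. The highest level was 0.320 CPM, from that 1 count in WT-mDF 22. Hapln1 was fitted only without the low-count filter, where it passed in 0 of 5 comparisons, with edgeR adjusted p of 0.575 or higher. The other link protein and lectican genes were also low or not detected, with Hapln4 the highest at 7.71 ± 1.96 CPM in KO-mDF and 10.7 ± 7.85 CPM in WT-mDF.

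Tnfaip6 (ENSMUSG00000053475, chromosome 2, 52038009-52056686, plus strand) encodes TSG-6, a secreted protein that hands heavy chains of inter-alpha-inhibitor on to hyaluronan. It had 3.21, 7.18 and 3.75 CPM in KO-mDF 18, 19 and 20, against 0 and 7.03 CPM in WT-mDF 11 and 22. The 0 counts in WT-mDF 11, a library with many gaps, allow up to 0.127 CPM. In lung it had 1.21, 1.28, 4.42 and 3.72 CPM in KO-mLF 7 to 10, against 21.2, 2.94, 4.72, 0.0420 and 5.05 CPM in WT-mLF 1, 23, 3, 4 and 5. WT-mLF 1 was the highest and WT-mDF 11 the lowest, and all groups overlapped. The log2 fold change was 0.45 ± 1.95 for KO-mDF over WT-mDF, -1.35 ± 1.44 for KO-mLF over WT-mLF, 0.82 ± 1.58 for KO-mDF over KO-mLF and -0.98 ± 1.86 for WT-mDF over WT-mLF, with edgeR adjusted p of 0.874 or higher. Without WT-mDF 11 the KO-mDF over WT-mDF estimate was -0.53.

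The Tnfaip6 promoter is shown because the gene is known as a target of inflammatory signalling. The AP-1 site TGANTCA stood at -142 and is in capitals; 7.81% of RefSeq promoters held it. It also held GGGCGG on the other strand at -171 and CCAAT at -152 and, on the other strand, at -81, a motif found in 37.4% of promoters. The NF-kappaB consensus was not in this window. The sequence lies at chr2:52037863-52038162 on the plus strand, and its start is 104 bases from that of GENCODE M21.
Tnfaip6 promoter: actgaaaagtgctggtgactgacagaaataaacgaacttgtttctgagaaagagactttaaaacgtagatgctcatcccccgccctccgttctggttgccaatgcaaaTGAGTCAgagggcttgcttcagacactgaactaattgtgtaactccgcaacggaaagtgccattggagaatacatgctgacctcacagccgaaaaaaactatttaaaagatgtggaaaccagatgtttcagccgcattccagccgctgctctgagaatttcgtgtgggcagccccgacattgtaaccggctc

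Cd44 (ENSMUSG00000005087, chromosome 2, 102811141-102901665, minus strand) encodes the main cell surface receptor for hyaluronan, which also helps to take it up for breakdown. It had 833, 1061 and 1169 CPM in KO-mDF 18, 19 and 20, and 596 and 654 CPM in WT-mDF 11 and 22. In KO-mLF 7 to 10 it had 525, 239, 264 and 249 CPM, and in WT-mLF 1, 23, 3, 4 and 5 it had 166, 325, 203, 246 and 247 CPM. Every skin library lay above every lung library, and every KO-mDF library above both WT-mDF libraries, while the lung genotypes overlapped. Among the lung libraries KO-mLF 7, the library with the most gaps, was the highest.

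Skin exceeded lung by a log2 fold change of 1.68 ± 0.32 in KO-mDF over KO-mLF, or 3.20-fold, with an edgeR adjusted p of 0.00431. In WT-mDF over WT-mLF it was 1.40 ± 0.33, or 2.64-fold, with an adjusted p of 0.0297. The genotype effects were 0.71 ± 0.39 for KO-mDF over WT-mDF (adjusted p = 0.784) and 0.43 ± 0.28 for KO-mLF over WT-mLF (0.881), and their difference was 0.28 ± 0.47 (1.00). The call in KO-mDF over KO-mLF held in 23 of 24 alternatives and ended without KO-mDF 19 and 20 (1.38, adjusted p = 0.157, with a range of 4.59e-07 to 0.157 over the alternatives). The call in WT-mDF over WT-mLF held in 16 of 24. It ended without the Xist libraries WT-mLF 1 and WT-mDF 22, a fit that left WT-mDF 11 alone in its group (1.21). It also ended without any single one of WT-mLF 1, 3, 4 and 5, KO-mLF 9, WT-mDF 11 and WT-mDF 22. Without WT-mDF 11 or WT-mDF 22, the other stood alone in its group. In WT-mDF over WT-mLF the adjusted p ran from 0.00176 to 0.154 over the alternatives. The exact permutation test gave p = 0.0571 for KO-mDF against KO-mLF and p = 0.0476 for WT-mDF against WT-mLF, among 32 such tests of the 8 genes. Adjusted over all genes these were 0.295 and 0.346.

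CD44 is also carried by leukocytes, and marker levels of several cell types differed between skin and lung. Of the 10 macrophage and leukocyte markers, 9 passed as lower in KO-mDF than in KO-mLF and 9 as lower in WT-mDF than in WT-mLF. Keratinocyte markers went the other way. From 10 tested, 7 passed as higher in KO-mDF than in KO-mLF and 4 as higher in WT-mDF than in WT-mLF. Within skin, KO-mDF had 114 to 160 CPM of these markers in sum and WT-mDF 29.1 to 119 CPM. Of 5 skeletal muscle markers, 2 passed as higher in KO-mDF than in KO-mLF and 3 as higher in WT-mDF than in WT-mLF, and the median of their log2 fold changes was 6.02 for Rel -/- and 9.13 for wild type. Of 7 mesothelium markers, 3 passed as lower in KO-mDF than in KO-mLF and 0 passed in WT-mDF against WT-mLF. Of the 8 fibroblast markers, 1 passed as higher and 1 as lower in each of these comparisons. The part of these cell types in the Cd44 levels was not tested. The Cd44 promoter, shown for the gene that passed, held GGGCGG at position 4 after the start, in capitals, and no match to the other 4 motifs. It lies at chr2:102901616-102901915 on the minus strand and starts at the same base as in GENCODE M21.
Cd44 promoter: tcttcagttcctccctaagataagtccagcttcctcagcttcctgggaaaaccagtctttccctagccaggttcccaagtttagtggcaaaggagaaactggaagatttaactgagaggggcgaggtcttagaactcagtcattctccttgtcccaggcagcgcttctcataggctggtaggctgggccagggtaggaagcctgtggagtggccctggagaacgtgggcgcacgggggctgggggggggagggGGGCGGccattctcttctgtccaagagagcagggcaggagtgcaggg

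Hyal2 (ENSMUSG00000010047, chromosome 9, 107567945-107572779, plus strand) encodes a hyaluronidase anchored at the cell surface that cuts long chains into intermediate fragments. It had 32.8, 60.2 and 70.4 CPM in KO-mDF 18, 19 and 20, against 44.9 and 22.1 CPM in WT-mDF 11 and 22. In lung it had 14.1, 32.5, 28.8 and 37.7 CPM in KO-mLF 7 to 10, against 43.0, 19.5, 35.5, 0 and 35.1 CPM in WT-mLF 1, 23, 3, 4 and 5. The 0 counts in WT-mLF 4 allow up to 0.126 CPM in a library of 22645274 counts, and this library and KO-mLF 7, the lowest of its group, are among the 4 with many gaps. All groups overlapped. The log2 fold change was 0.69 ± 1.23 for KO-mDF over WT-mDF, 0.09 ± 0.89 for KO-mLF over WT-mLF, 0.94 ± 1.00 for KO-mDF over KO-mLF and 0.34 ± 1.09 for WT-mDF over WT-mLF, with edgeR adjusted p of 0.724 or higher.

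Hyal1 (ENSMUSG00000010051, chromosome 9, 107576927-107581710, plus strand), the lysosomal hyaluronidase, lies next to Hyal2 on the same strand. It had 11.0, 7.36 and 10.3 CPM in KO-mDF 18, 19 and 20, against 2.80 and 8.31 CPM in WT-mDF 11 and 22. In lung it had 36.1, 5.11, 2.08 and 10.8 CPM in KO-mLF 7 to 10, against 10.3, 5.36, 6.30, 14.5 and 5.66 CPM in WT-mLF 1, 23, 3, 4 and 5. KO-mLF 7 was the highest of all libraries and KO-mLF 9 the lowest, and all groups overlapped. The log2 fold change was 0.80 ± 1.12 for KO-mDF over WT-mDF, 0.68 ± 0.79 for KO-mLF over WT-mLF, -0.50 ± 0.91 for KO-mDF over KO-mLF and -0.62 ± 1.04 for WT-mDF over WT-mLF, with edgeR adjusted p of 0.866 or higher. Without the 4 libraries with many gaps, the KO-mLF over WT-mLF estimate was -0.18. The Hyal1 locus overlaps on the same strand Naa80, read at 0.0420 to 18.6 CPM, and Hyal3, read at 1.37 CPM or less, so the Hyal1 counts are uncertain.

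Per kilobase, Hyal1 made up 69.0% of the summed level of Hyal1 and Hyal2 in KO-mLF 7 and 100% in WT-mLF 4, and 5.14% to 24.7% in the other 12 libraries. In KO-mLF 7 the higher Hyal1 and the lower Hyal2 stood in 1 library, and in WT-mLF 4 Hyal1 was also the highest of its group. The Hyal2 promoter is shown because it was the only one of the 7 that held the NF-kappaB consensus, in capitals at -238, where it read on both strands. That motif was found in 4.51% of RefSeq promoters. Hyal2 also held GGGCGG at -47. The sequence lies at chr9:107568913-107569212 on the plus strand, and its RefSeq start is 1218 bases downstream of the GENCODE M21 start.
Hyal2 promoter: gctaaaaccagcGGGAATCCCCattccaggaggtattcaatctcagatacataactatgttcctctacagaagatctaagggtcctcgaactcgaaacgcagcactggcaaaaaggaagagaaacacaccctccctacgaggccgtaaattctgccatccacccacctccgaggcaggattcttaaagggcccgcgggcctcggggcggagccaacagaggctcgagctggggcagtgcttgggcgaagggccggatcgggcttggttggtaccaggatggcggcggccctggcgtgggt

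Across 40 further genes of the hyaluronan pathway, 31 passed the low-count filter and 7 had 0 counts in every library. No gene of the 31 passed for genotype in skin or lung or for the difference between the 2, beside 0% of all genes tested. In KO-mDF over KO-mLF, 1 gene was higher (Gfpt1) and 3 were lower, Stab1 and Hexa among them, where 3.23% of all genes passed as lower. In WT-mDF over WT-mLF, 0 were higher and 3 were lower (Cemip, Stab1 and Gfpt2), where 2.07% did. The count in KO-mDF over KO-mLF was 2 without WT-mLF 5, KO-mLF 8, KO-mLF 9 or KO-mDF 18 and 1 without KO-mDF 19 or KO-mDF 20, against 4. That in WT-mDF over WT-mLF was 1 without any single WT-mLF library or without KO-mDF 19 or KO-mDF 20, against 3. The median log2 fold change of the 31 genes was -0.28 for KO-mLF over WT-mLF and 0.05 for KO-mDF over WT-mDF, and -0.14 and -0.32 for skin over lung in Rel -/- and in wild type.

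Stab1, a scavenger receptor of macrophages and sinusoidal endothelium, had 19.2 ± 14.7 CPM in KO-mDF and 734 ± 397 CPM in KO-mLF (log2 fold change -5.25 ± 0.95, edgeR adjusted p = 0.00321). Its level was 2.82 ± 3.69 CPM in WT-mDF and 467 ± 223 CPM in WT-mLF (-7.80 ± 1.35, adjusted p = 0.00356). In both comparisons Stab1 passed with each of the 14 libraries left out in turn. In KO-mDF over KO-mLF the call ended without KO-mDF 19 and 20 together, a fit that left KO-mDF 18 alone in its group. In WT-mDF over WT-mLF it ended with limma-voom (adjusted p = 0.0784). Hexa encodes a lysosomal enzyme subunit that helps to trim sugar fragments left by the hyaluronidases. Its log2 fold change was -1.40 ± 0.37 in KO-mDF over KO-mLF (edgeR adjusted p = 0.0391) and -0.77 ± 0.41 in WT-mDF over WT-mLF (adjusted p = 0.459). The call for Hexa held in 14 of 24 alternatives, with adjusted p of 0.000118 to 0.252. It ended with upper-quartile factors, with only the 2 groups compared, without KO-mDF 19 and 20 together, and without any single one of KO-mDF 18, 19 and 20, KO-mLF 8, 9 and 10 and WT-mLF 5. The macrophage and leukocyte markers moved in the same direction, as given above, and their part in Stab1 and Hexa was not tested.

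Among the precursor enzymes, Gfpt1 and Gfpt2 open the hexosamine pathway, which supplies UDP-N-acetylglucosamine. Gfpt1 rose by a log2 fold change of 1.13 ± 0.27 in KO-mDF over KO-mLF (edgeR adjusted p = 0.0202), and was 0.42 ± 0.29 in WT-mDF over WT-mLF (0.614). Its call held in 20 of 24 alternatives and ended without KO-mDF 19, KO-mDF 20 or both and with only the 2 groups compared (adjusted p of 0.000354 to 0.228 over the alternatives). Gfpt2 fell in WT-mDF over WT-mLF (-1.96 ± 0.50, adjusted p = 0.0462), a call that held in 9 of 24 alternatives (0.00191 to 0.483). The Gfpt2 call ended with limma-voom, with a filter of 1 CPM in 4 libraries, with only the 2 groups compared and without the Xist libraries. It also ended without any single WT-mLF library, KO-mLF 8, 9 or 10, KO-mDF 19 or 20, or WT-mDF 22. Ugp2, which makes UDP-glucose, had 68.2 ± 25.6 CPM in KO-mDF and 157 ± 62.4 CPM in WT-mDF (-1.20 ± 0.42, adjusted p = 0.674), with 163 ± 46.4 CPM in KO-mLF and 129 ± 40.5 CPM in WT-mLF. Cemip, a secreted hyaluronan-binding protein needed for hyaluronan breakdown by human skin fibroblasts, fell in WT-mDF over WT-mLF (-1.91 ± 0.47, adjusted p = 0.0375), and was -0.79 ± 0.39 in KO-mDF over KO-mLF (0.290). The call for Cemip held in 13 of 24 alternatives (0.000238 to 0.171). It ended with only the 2 groups compared, without the Xist libraries and without KO-mDF 19, KO-mDF 20 or both. It also ended without any single WT-mLF library or WT-mDF 22. The related gene Cemip2, a hyaluronidase of the cell surface in mouse, was 1.61 ± 0.47 (0.0598) in KO-mDF over KO-mLF and 1.62 ± 0.48 (0.0983) in WT-mDF over WT-mLF. The difference between the tissue effects of the genotypes is the same contrast as the difference between the genotype effects of the tissues, for which no gene passed.

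Ptx3, a pentraxin that links heavy chains in hyaluronan matrices, had 132 ± 76.4 CPM in KO-mLF and 718 ± 731 CPM in WT-mLF (log2 fold change -2.44 ± 0.87, edgeR adjusted p = 0.781). Layn, which encodes the hyaluronan receptor layilin, had 27.8 ± 3.41 CPM in KO-mLF and 53.7 ± 27.1 CPM in WT-mLF (-0.95 ± 0.40, adjusted p = 0.781). All 8 fibroblast markers had negative estimates in the same comparison (median -0.66, on the log2 scale) and 0 passed; their part in Ptx3 and Layn was not tested. Lyve1, a hyaluronan receptor of lymphatic endothelium, had 0.184 ± 0.319 CPM in KO-mDF and 2.89 ± 4.45 CPM in KO-mLF. In wild type it had 0 counts in WT-mDF, against 14.8 ± 13.4 CPM in WT-mLF, where libraries ran from 3.32 to 37.7 CPM (edgeR adjusted p = 0.148). Itih4, of the inter-alpha-trypsin inhibitor heavy chain family, had 0 counts in both skin groups, against 9.12 ± 15.1 CPM in KO-mLF and 4.27 ± 3.66 CPM in WT-mLF. The KO-mLF libraries ran from 0 to 31.6 CPM of Itih4 and the WT-mLF libraries from 0.0420 to 7.24 CPM, and neither comparison of skin with lung passed (edgeR adjusted p = 0.0891 in Rel -/- and 0.339 in wild type).

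**Figure D5:**
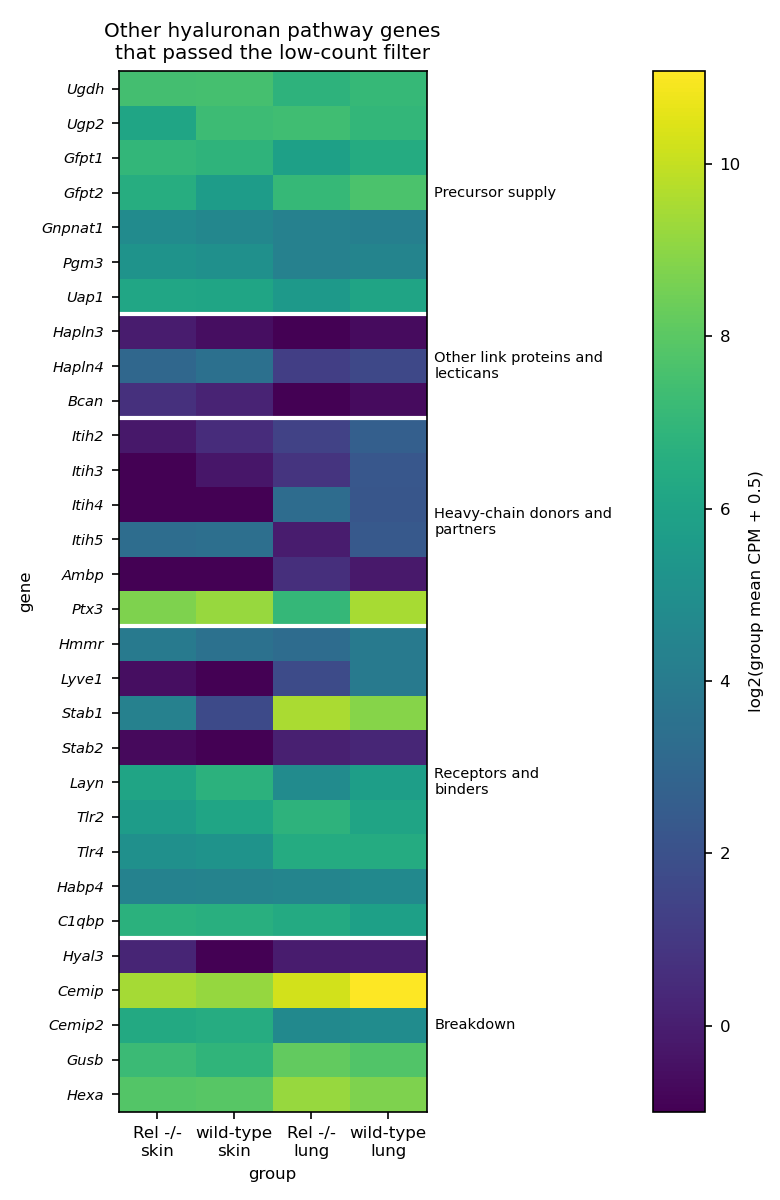
Group mean level of 30 of the further pathway genes that passed the filter, as log2(mean CPM + 0.5) in colour, with genes down the y axis by role and groups on the x axis. Stab1, Lyve1 and Itih4 are darker in both skin groups than in both lung groups, and Cemip is bright in every group.

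As a description of likeness over the 14 libraries, the highest Pearson r of log2(CPM + 0.5) among all tested genes was taken for each gene. The libraries differ in tissue, genotype, depth and gaps. Has3 was most like Ildr1 (r = 0.961), Rab25 (0.958) and Cldn23 (0.948), of which Rab25 and Cldn23 are known from epithelia. Cd44 was most like Gpr149 (0.956), Gsto1 (0.951) and Prrg4 (0.951). For Vcan the nearest genes were Col6a1 (0.884), Nol4 (0.855) and Col6a2 (0.855), of which Col6a1 and Col6a2 encode chains of collagen VI. Has1 was nearest to Vars (0.936), Pik3c2b (0.908) and A530013C23Rik (0.883), and Has2 to Asb2 (0.845), Wfs1 (0.818) and Arhgdig (0.805). The nearest genes to Tnfaip6 were Mn1 (0.906), Cdca7 (0.891) and Myl6b (0.888). Those of Hyal1 were Dgkh (0.898), Parva (0.873) and Hibch (0.847), and those of Hyal2 were Mrpl45 (0.973), Dhx30 (0.970) and Gpaa1 (0.961). Hyal2 had 0 counts in WT-mLF 4, a library with many gaps, and at least 14.1 CPM in every other library. Its r values, that with Hyal1 included, can therefore rest largely on WT-mLF 4. Tnfaip6 had 0 counts in WT-mDF 11 and 1 in WT-mLF 4, both with many gaps, and at least 1.21 CPM elsewhere. The r values of Tnfaip6 can likewise rest largely on those libraries. Has3 was at most 0.517 CPM outside KO-mDF, so its r values can rest largely on the KO-mDF libraries. Among the 8 genes themselves the highest r was that of Has3 with Cd44 (0.719), followed by Has1 with Tnfaip6 (0.662), and the lowest that of Hyal1 with Hyal2 (-0.339).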

How the data were processed

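RNA was sequenced from 14 libraries of cultured explant outgrowths. The authors deposited raw read counts per Ensembl gene. Per the submitters' processing notes, FastQC 0.11.2, Trimmomatic 0.33, STAR 2.4.2a and GRCm38 were used. Per the labels' protocols the library kit was directional; how reads were counted, with which strand setting and which annotation, is not given here by any source used. Symbols, coordinates and merged exon lengths came from GENCODE M21, which held 48435 of the 48795 gene identifiers.

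CPM were computed here as counts over TMM-scaled library totals. Tests used edgeR 4.0.16 (R 4.3.3): filterByExpr (minimum count 10, total 15), a quasi-likelihood fit with 4 group means over all 14 libraries, and Benjamini-Hochberg adjustment over 16408 genes at 0.05; the common dispersion was 0.948. SE is the size of the log2 fold change over the root of F. The steps were tested on simulated data. Alternatives were RLE and upper-quartile factors, other filters, DESeq2 1.42.0, limma-voom (limma 3.58.1), fits of 2 groups, and fits without libraries. Intervals and the limit of 3 counts cover counting error only. From the further pathway list, genes past the threshold were named, filled up to 12 by smallest unadjusted p; 1 of them is not reported here. The members and lists were chosen with earlier results of these data known.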

Additional observations from a re-analysis of the deposited data

Results flagged for a closer look

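In 18 checks of the 9 genes in the 2 lung groups, 8 values met Dixon's criterion at the 95% level for the highest library of a group. For normally distributed values chance meets it in about 1 of 20 groups, a rate that does not apply where all other libraries are at 0. The values checked were untransformed CPM, which were not shown to be normal, so 8 of 18 cannot be set against that rate. Groups of fewer than 4 libraries were not checked. Has1 (23.1 CPM) and Tnfaip6 (21.2 CPM) stood apart in WT-mLF 1, a library that read Xist. Has3 (0.517 CPM) and Hapln1 (0.241 CPM) stood apart in WT-mLF 3, the deepest library, from 15 and 7 counts. Has3 in KO-mLF 10 (0.0509 CPM, 1 count) and Hapln1 in KO-mLF 9 (0.135 CPM, 3 counts) met it by construction, since the other libraries of the group had 0 counts, and at 3 counts or fewer they are not read as standing apart. Cd44 stood apart in KO-mLF 7 (525 CPM), the library with the most gaps, and Vcan in KO-mLF 10 (189 CPM), the library whose treatment label names skin.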

How the results depend on the processing

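No paired analysis was made, because the labels do not say which libraries stem from the same animal. The genotype comparisons and their difference gave 0 called among the 8 genes in every alternative run. In KO-mDF over KO-mLF the count was 3 with limma-voom (Cd44, with Has3 5.77 and Vcan 1.47) and 0 without KO-mDF 19 and 20, against 1. In WT-mDF over WT-mLF the count was 2 without the filter (782 of all 24046 genes) and 2 with DESeq2 (1220 of 16408), against 1 (487). It was 0 to 1 with a library left out, and the Cd44 call ended without the Xist libraries. The exact permutation count was 3 on untransformed CPM in KO-mDF against KO-mLF, against 1, and 0 to 0 with a library left out in any comparison, where fewer splits could not reach the threshold in the tissue comparisons. In KO-mDF over KO-mLF the further list gave 8 with DESeq2 and 22 with limma-voom, against 4. These tools called 1770 and 4501 of all genes there. With a library left out the further list gave 1 to 6. In WT-mDF over WT-mLF it gave 6 (DESeq2), 1 (limma-voom) and 1 (without the Xist libraries), against 3, and 1 to 4. The fit without the Xist libraries left WT-mDF with 1 library, which has many gaps. In that fit the log2 fold change of Stab1 was 6.49 in KO-mDF over WT-mDF, against 3.20 in the main fit. For the difference it was 6.07, against 2.55. Without WT-mDF 22 alone, which left the same WT-mDF library, Stab1 was 6.47 in KO-mDF over WT-mDF. With 1 library in a group, these values are not read as calls. The cause of these changes was not tested.

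Uncalled log2 fold changes that turned sign were, for KO-mLF over WT-mLF, Has1 (limma-voom 1.23, without Xist libraries 0.23) and Hyal1 (limma-voom -0.21, without gap libraries -0.18). For KO-mDF over WT-mDF, Tnfaip6 was -0.29 without the gap libraries, and without KO-mDF 19 and 20 Has2 was -1.25, Tnfaip6 -0.12 and Hyal2 -0.043. For the difference, Has2 was 1.33 with limma-voom, 0.25 without gap and 0.68 without Xist libraries, Hyal2 -0.022 without Xist libraries and -0.15 without KO-mDF 19 and 20, and Cd44 -0.036 in that fit. For KO-mDF over KO-mLF, Hyal1 was 0.68 with limma-voom and 0.62 without gap libraries, and without KO-mDF 19 and 20 Has2 was -1.37 and Vcan -0.51. For WT-mDF over WT-mLF, limma-voom gave Has1 0.054 and Has2 -0.53, the fit without Xist libraries Has2 -0.46 and Has3 -4.78, and that without gap libraries Hyal1 0.26 and Hyal2 -0.60. With each library left out, ranges that crossed 0 were as follows. For KO-mLF over WT-mLF they were Has1 -2.95 to 0.25, Hyal1 -0.50 to 1.10 and Hyal2 -0.21 to 0.35. For KO-mDF over WT-mDF they were Has2 -0.17 to 1.26 and Tnfaip6 -0.53 to 9.65. For the difference they were Has2 -0.71 to 0.76 and Hyal1 -0.49 to 1.34. For KO-mDF over KO-mLF they were Has2 -0.14 to 0.64 and Hyal1 -0.89 to 0.70. For WT-mDF over WT-mLF they were Has2 -0.56 to 0.92, Has3 -4.49 to 2.12, Tnfaip6 -10.18 to 0.15 and Hyal2 -0.28 to 0.76, and Cd44 stayed at 1.32 to 1.57. Of 385 fits of single genes under other settings 355 kept direction and side of the threshold. The difference has no fit of only 2 groups. WT-mDF 22, the shallowest library, gave 6 counts of Has1, 1 of Has3 and 22 of Tnfaip6, which limits the skin comparisons of these genes.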
